A study of Mus musculus with 2 samples.

Results

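Krt6a, Krt6b, Krt16 and Krt17 are commonly called wound and stress keratins. They were taken by name from the feature lists of both libraries, where they are 4 of 53 keratin genes and 4 of the 31054 features of the normal and 32285 of the wounded library. Each was followed through the cells of 10 named clusters (4 normal, 6 wounded), and through the cells that passed the filters without receiving a name. The levels followed the common name only in part. By summed UMIs each of the 4 genes had its highest level among the named clusters in the normal library, and the wounded cluster named Wound_Stress was among the lowest for all of them. In the clusters named Basal, however, 3 of the 4 were higher in the wounded library. Those clusters differed widely in other genes, and wounded Basal was more like Anal Canal (correlation 0.931) than like normal Basal (0.836). Against Anal Canal it had less of all 4 genes by summed UMIs.

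Keratins are the intermediate filament proteins of epithelial cells, and a filament needs a type II and a type I partner. Krt6a and Krt6b are type II keratins, and Krt16 and Krt17 are type I keratins that pair with them. In the epidermis between hair follicles these genes are known for being switched on after wounding and in hyperproliferative disease, while hair follicles, nail and the lining of the mouth express some of them all the time. Krt17 also marks the transition zone (TZ), the stratified epithelium between the anal canal and the rectum.

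The cells came from the anorectal region of K17CreERT2;R26RGFP mice on a C57/BL6J background, all given tamoxifen on consecutive days. In these mice the Krt17 promoter drives an inducible Cre, which switches on the reporter ZsGreen1. The normal library held cells of unwounded mice, and the wounded library held cells taken 1 week after rectal crypts next to the TZ had been removed with hot EDTA and a brush. The paper describes the wound as made after tamoxifen, so wounded cells were also taken later after tamoxifen than normal cells. The part of this delay in the differences was not tested. Each library was 1 pool of several mice, sorted for live Epcam+ cells with CD45, CD11b, CD31 and PDGFRa cells excluded. There was therefore no replicate, and no test between conditions was possible. The paper gives an age of a few months for wounded mice and of several weeks for its in vivo animals in general.

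The normal library held 17617944 UMIs (unique molecular identifiers, counted molecules) in 2564 barcodes and the wounded library 88260050 UMIs in 17216 barcodes. Of these barcodes 1015 and 11991 failed the filters and had no name, with 1557364 and 33019958 UMIs. The median mitochondrial share over all barcodes was 9.05% in the normal and 50.9% in the wounded library. The authors named 939 normal and 4147 wounded cells, with median depths of 9724 and 10077 UMIs, and the cells without a name that passed the filters numbered 610 and 1078. The libraries shared 1 cell barcode and 0 among named cells. Levels are UMIs of a gene summed over a cluster and divided by all UMIs of that cluster, in counts per 1000000 (CPM). A range in brackets is a 95% interval that covers counting error only. It is the exact Poisson interval of a level, the Clopper-Pearson interval of a share, or the exact binomial interval of a log2 ratio. The authors formed the clusters from expression, and these keratins may have been among the genes used. The paper also identified clusters by them: Krt17 for the TZ, Krt6 for its suprabasal cells, and Krt17 with Krt8 for hybrid cells. Differences between clusters of 1 library are therefore a description, and may in part follow from the naming. Rectum cells, a simple epithelium with Krt8 at 2741 CPM (normal) and 2386 CPM (wounded), served as the background, being a cell type that should lack these genes.

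The 4 genes lie in both keratin clusters of the mouse genome (GRCm38, GENCODE M21, all on the minus strand). Krt6a (ENSMUSG00000058354) spans chr15:101689910-101694307 in 9 exons, and Krt6b (ENSMUSG00000023041) spans chr15:101676023-101680287 in 9 exons, 9622 bases away. Krt16 (ENSMUSG00000053797) spans chr11:100246091-100248902 in 8 exons, and Krt17 (ENSMUSG00000035557) spans chr11:100256217-100261029 in 8 exons, 7314 bases away. The transcripts of Krt6a and Krt6b were identical at 93.1% of their aligned bases, with a shared run of 280 bases, and those of Krt16 and Krt17 at 77.8%, with a shared run of 55 bases. The last 400 bases, where a 3' library reads most, were less alike in Krt6a and Krt6b (82.2%, longest shared run 22 bases). Reads that lie wholly in a shared run cannot be told apart by gene, so low Krt6b values beside high Krt6a values are uncertain. The ends of the coding sequences are shown because they mark how few bases separate the genes there. They lie 560 bases (Krt6a) and 509 bases (Krt6b) before the transcript end, outside the last 400 bases. They are printed 5′ to 3′ from exon 9 of each gene, at chr15:101690470-101690586 for Krt6a and chr15:101676532-101676651 for Krt6b, both minus strand. Capitals mark bases that differ from, or have no partner in, the other gene, and 114 bases are the same in both.
Krt6a: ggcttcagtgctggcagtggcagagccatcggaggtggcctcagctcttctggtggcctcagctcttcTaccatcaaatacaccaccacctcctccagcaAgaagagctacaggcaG
Krt6b: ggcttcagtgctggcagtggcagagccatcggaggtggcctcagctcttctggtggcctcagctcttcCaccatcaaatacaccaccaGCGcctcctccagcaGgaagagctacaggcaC

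Krt6a, the more widely expressed of the type II genes, was at 182 CPM (166 to 198) in normal Basal, 1338 CPM (1291 to 1386) in normal Suprabasal and 1724 CPM (1686 to 1764) in Anal Canal cells. In the wounded library it was at 724 CPM (702 to 746) in Basal, 1034 CPM (1016 to 1053) in Suprabasal and 145 CPM (126 to 166) in Hybrid cells, but at only 38.8 CPM (35.5 to 42.4) in Regeneration and 12.6 CPM (10.2 to 15.4) in Wound_Stress cells. Rectum cells held 17 CPM (8.81 to 29.8) in the normal and 38.4 CPM (32.7 to 44.9) in the wounded library. Wound_Stress was below the Rectum cells of its own library. Regeneration was at the same level as those Rectum cells, but 1 Rectum cell held 68 of their 158 UMIs. With each cell counted equally Regeneration was at 46.4 CPM and wounded Rectum at 21.3 CPM, without the 10% of cells with the most UMIs they were at 43.0 and 16.1 CPM, and in cells under 10% mitochondrial UMIs at 39.8 and 19.8 CPM. Wound_Stress was at 6.51, 4.06 and 8.57 CPM in these settings, again below the Rectum. The Hybrid level was 337 CPM with each cell counted equally. The order at the top depended on how cells were weighted: normal Suprabasal, not Anal Canal, led when each cell counted equally and when the 10% of cells with the most UMIs were left out.

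Krt6b, a close copy of Krt6a, was found in fewer places. It reached 269.6 CPM (254 to 285) in Anal Canal and 197 CPM (185 to 209) in wounded Basal cells, and no other named cluster was above 21.5 CPM (15.9 to 28.4), the value of normal Suprabasal. The remaining levels were 14.2 CPM in Hybrid, 4.32 CPM in wounded Suprabasal, 1.11 CPM in normal Basal (3 UMIs), 0.536 CPM in Wound_Stress (4 UMIs) and 0.0769 CPM in Regeneration (1 UMI), against 1.42 CPM and 2.19 CPM in the normal and wounded Rectum. The intervals of Anal Canal and wounded Basal did not overlap, but wounded Basal led (199.8 CPM against 186 CPM) when each cell counted equally. The value of normal Suprabasal rested on 49 UMIs, 23 of them in 1 cell, and was 4.47 CPM without the 10% of cells with the most UMIs. That of Hybrid was 34.4 CPM with each cell counted equally and 0 in cells under 10% mitochondrial UMIs.

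Krt16, the type I keratin usually paired with Krt6 in stressed epidermis, was highest in Anal Canal cells at 503 CPM (482 to 524). It was at 144 CPM (129 to 160.1) in normal Suprabasal, 117 CPM (108 to 126) in wounded Basal, 35.4 CPM (32.1 to 39.0) in wounded Suprabasal and 27.0 CPM (21.2 to 33.9) in normal Basal cells, and the last 2 intervals overlap. Hybrid cells held 16.9 CPM, or 39.5 CPM with each cell counted equally, and Regeneration cells 6.77 CPM (5.43 to 8.34). Wound_Stress cells held 1.88 CPM (1.03 to 3.15), which could not be told from the 1.46 CPM (0.536 to 3.18) of wounded Rectum or the 1.42 CPM (0.0360 to 7.91) of normal Rectum.

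Krt17, the TZ keratin, had another order. Normal Suprabasal led at 9389 CPM (9263 to 9515), wounded Suprabasal followed at 7100.3 CPM (7052 to 7149) and normal Basal at 2265 CPM (2209 to 2323). Hybrid at 1148 CPM (1094 to 1204), Regeneration at 1004 CPM (987 to 1021), Anal Canal at 704 CPM (679 to 729) and wounded Basal at 381 CPM (365 to 397) lay between, and Wound_Stress at 109.9 CPM (103 to 118) was lowest outside the Rectum clusters, a place it kept under all 5 alternative ways of computing the level. Wounded Rectum cells, at 134 CPM (123 to 146), were above Wound_Stress by summed UMIs, and normal Rectum cells were at 36.9 CPM (24.1 to 54.1). The order of Wound_Stress and wounded Rectum was not stable: 1 Rectum cell held 160 of their 551 UMIs, the levels were 89.7 and 91.6 CPM without the 10% of cells with the most UMIs, and 118 and 78.1 CPM in cells under 10% mitochondrial UMIs. In wounded Basal 1 cell held 645 of 2187 UMIs, and the level was 229 CPM without the cells with the most UMIs. Hybrid was at 1931 CPM with each cell counted equally.

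**Figure D1:**
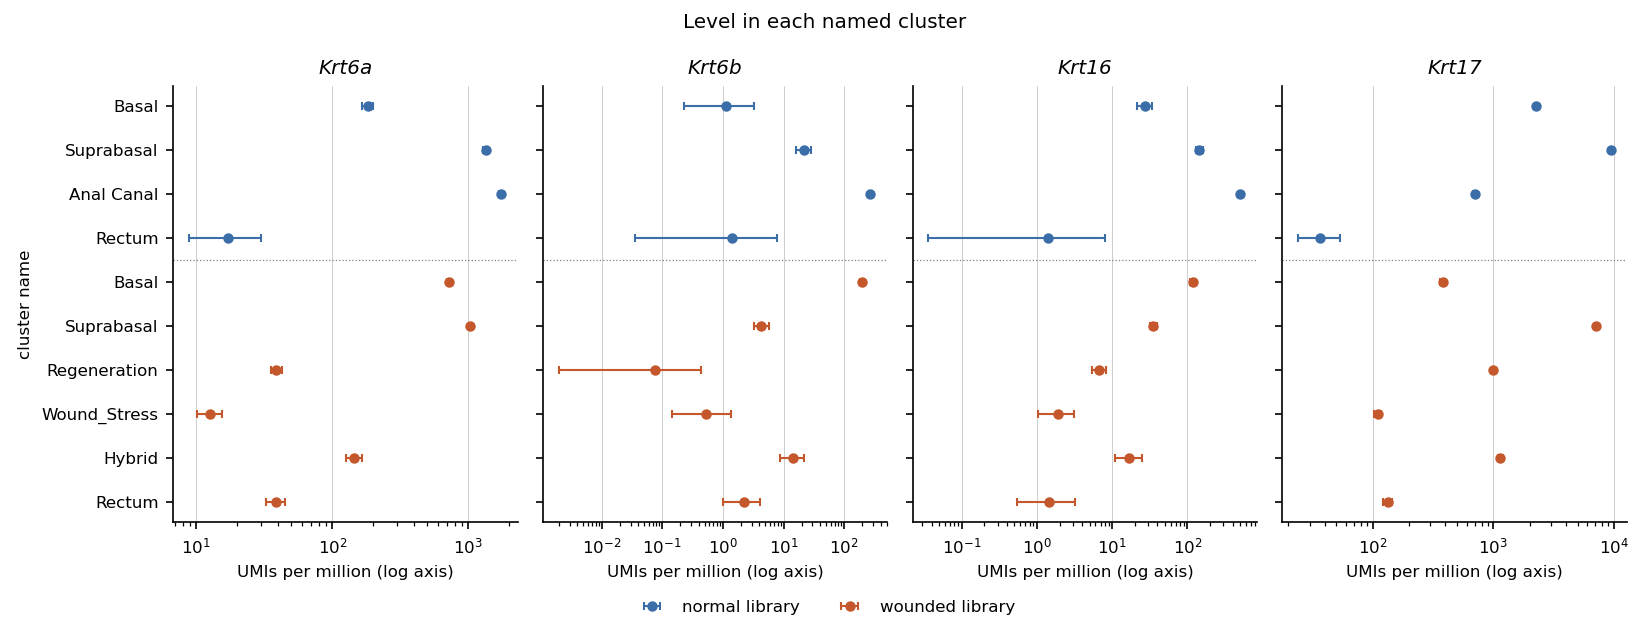
Level of each gene in CPM on a log axis, with normal clusters above and wounded clusters below the dotted line; points are sums over the cells of a cluster and bars are exact 95% Poisson intervals that cover counting error only. Wound_Stress sits at 12.6 CPM for Krt6a and at 109.9 CPM for Krt17, between normal Rectum (36.9 CPM) and wounded Rectum (134 CPM), while normal Suprabasal reaches 9389 CPM for Krt17 and Anal Canal 503 CPM for Krt16.

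The share of cells with a UMI was taken after every cell had been thinned at random to 2000 UMIs, which left out 132 Hybrid cells and between 2 and 43 cells of every other cluster. Krt17 was found in 98.4% (95.3 to 99.7) of normal Suprabasal, 82.0% (76.7 to 86.5) of normal Basal and 32.5% (27.9 to 37.3) of Anal Canal cells, and in 91.2% (89.3 to 92.8) of wounded Suprabasal, 54.9% (51.7 to 58.0) of Regeneration, 47.8% (40.4 to 55.3) of Hybrid and 22.2% (18.8 to 25.8) of wounded Basal cells. Before thinning these shares were 98.4%, 91.8%, 59.5%, 96.1%, 80.3%, 53.8% and 47.8%. In Wound_Stress 14.9% (12.5 to 17.5) of cells had Krt17, 37.2% unthinned, against 10.2% (7.22 to 13.8) of wounded Rectum cells, 28.2% unthinned, at median depths of 8532 and 9991 UMIs. No order between these 2 clusters was read, since the intervals overlap and the order of the levels was not stable.

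By share, normal Suprabasal and not Anal Canal led for Krt6a and Krt16, though the intervals of Krt16 overlap. Krt6a was found in 65.6% (58.2 to 72.4) of normal Suprabasal, 44.3% (39.4 to 49.4) of Anal Canal and 23.1% (18.1 to 28.8) of normal Basal cells, and in 43.7% (40.7 to 46.8) of wounded Suprabasal and 32.8% (28.9 to 36.8) of wounded Basal cells. In Wound_Stress 0.856% (0.345 to 1.76) of cells had it, against 2.82% (1.36 to 5.13) of wounded Rectum cells, and this is read as background. In Regeneration 5.17% (3.88 to 6.75) had it. The intervals of Wound_Stress and Regeneration overlap those of both Rectum clusters. Krt16 reached 28.4% of normal Suprabasal and 25.4% of Anal Canal cells and 12.2% of wounded Basal cells, and was in 0 of 60 and 0 of 354 Rectum cells, which allows up to 5.0% and 0.847% of cells with a UMI at this depth. Unthinned, 1.59% and 1.51% of these cells had one. Krt6b passed 5% only in Anal Canal (9.82%, 7.08 to 13.2) and wounded Basal cells (9.75%, 7.43 to 12.5), and was in 0 of 986 Regeneration cells, which allows up to 0.304%. These limits are on cells with a UMI after thinning, not on cells that express the gene.

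**Figure D2:**
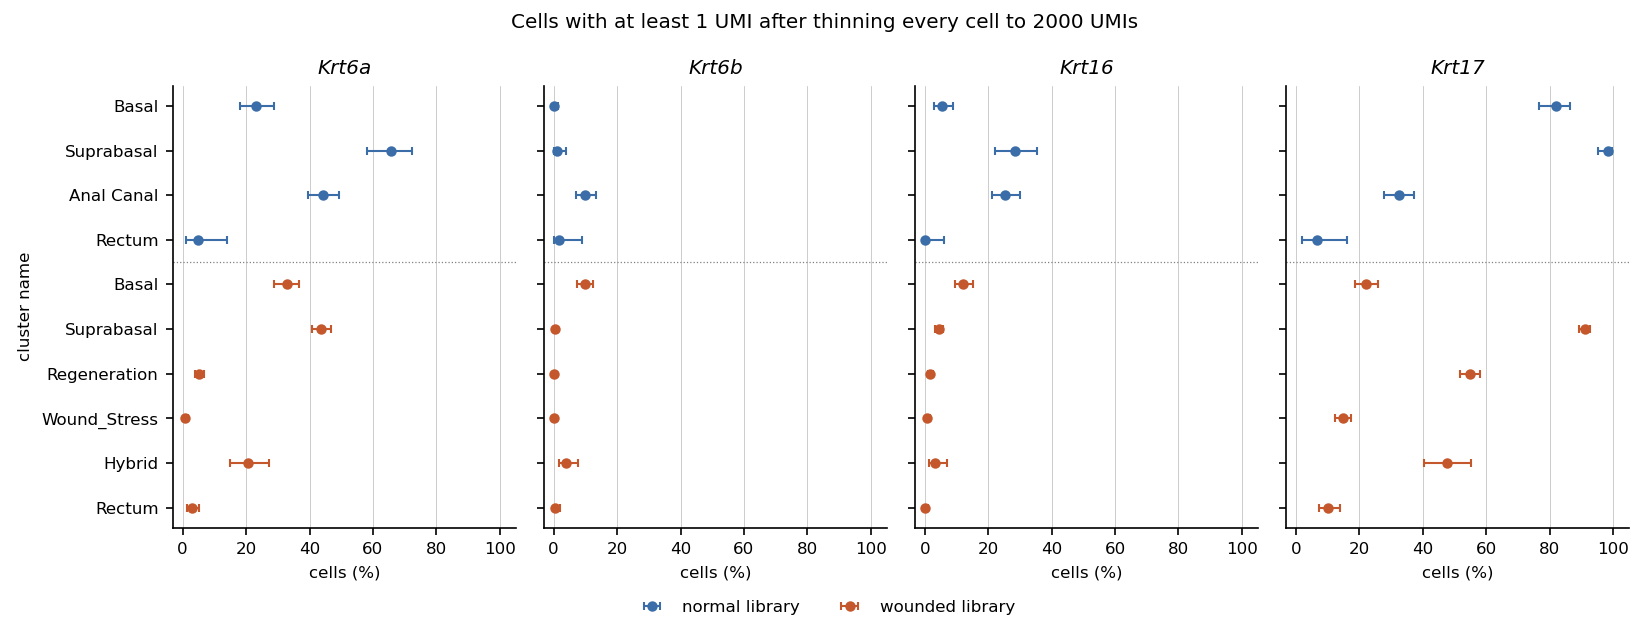
Percent of cells with at least 1 UMI of each gene after thinning to 2000 UMIs, by cluster, with exact 95% Clopper-Pearson intervals. Krt17 ranges from 98.4% of normal Suprabasal to 14.9% of Wound_Stress cells outside the Rectum, where it is at 6.67% and 10.2%, and Krt6b is near 10% in Anal Canal and wounded Basal cells and at 3.80% or less elsewhere.

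Within a cluster the UMIs were spread very unevenly. Cells were ordered for each gene by itself, so the top cells may differ from gene to gene. The 19 normal Suprabasal cells with the highest level of a gene, 10% of that cluster, held 25.5% of the UMIs for Krt17 and 35.6% for Krt6a. Only 49 Krt6b UMIs were found in that cluster at all. In Anal Canal the top 44 cells of each gene held 97.7% of the Krt6b, 84.3% of the Krt16, 68.5% of the Krt17 and 66.5% of the Krt6a UMIs. The Anal Canal levels therefore rested on a minority of cells. Single cells held up to 480 UMIs of Krt6a, 290 of Krt6b, 242 of Krt16 and 270 of Krt17, and the median cell was at 220.3 CPM for Krt6a, 101 CPM for Krt17 and 0 for Krt6b and Krt16. Wounded Basal was alike in this, with 93.3% of Krt6b, 79.4% of Krt16, 83.3% of Krt17 and 71.5% of Krt6a UMIs in the top 58 cells of each gene. In wounded Suprabasal the top 104 cells held 41.8% of the Krt17 UMIs, and the median cell there was at 2774 CPM against 7270.4 CPM in normal Suprabasal.

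**Figure D3:**
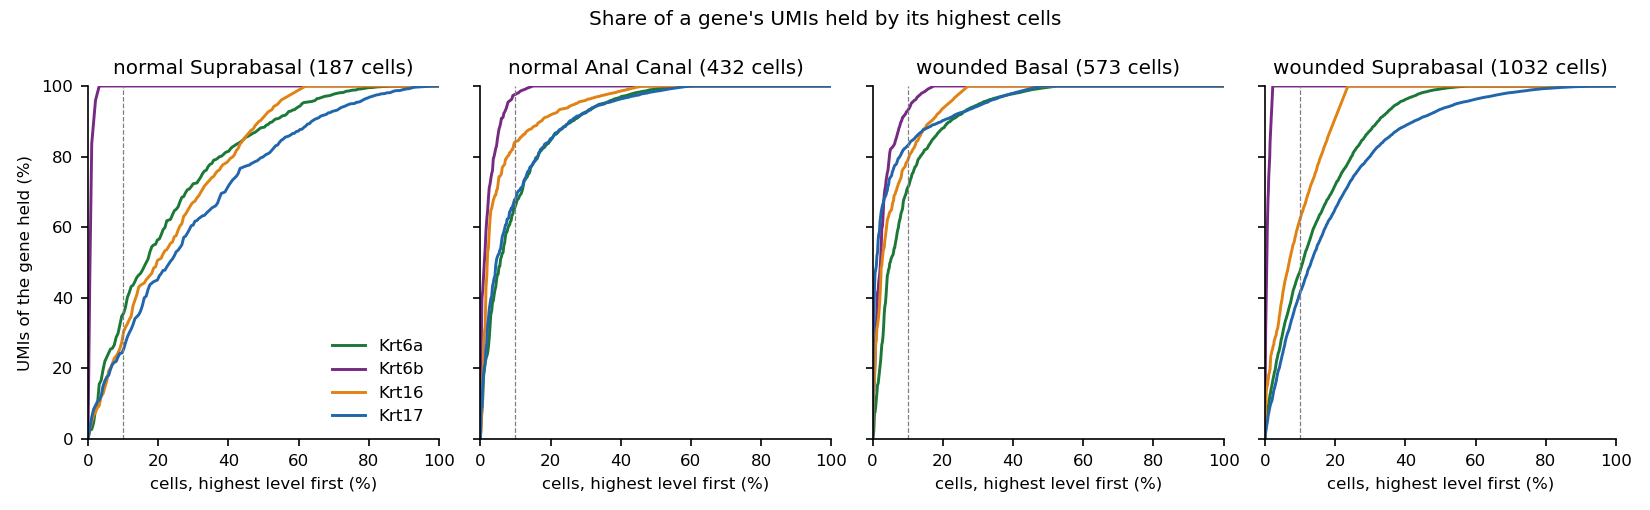
Cumulative percent of a gene's UMIs against the percent of cells, cells ordered from the highest level of that gene, in 4 clusters; the dashed line marks 10% of cells. The Krt6b curve of Anal Canal has reached 97.7% there, while the Krt17 curve of normal Suprabasal has reached 25.5%.

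The genes met in the same cells more in some pairs than in others. In Anal Canal 94.9% of the 39 thinned cells with Krt6b also had Krt6a, against 38.8% of the cells without Krt6b, and 64.1% had Krt16, against 21.2%. In wounded Basal the corresponding values were 85.5% against 27.1% for Krt6a, over 55 cells with Krt6b, and 30.9% against 10.2% for Krt16. Since Krt6a and Krt6b share long runs of sequence, some of the first pair's overlap may be reads assigned to the other gene, which was not tested. Most cells with Krt6b also had the keratins of internal linings: 82.1% in Anal Canal and 81.8% in wounded Basal had Krt13, a keratin of internal stratified epithelia, against 19.8% and 23.8% of cells without Krt6b, and 87.2% and 80.0% had its partner Krt4, against 35.2% and 27.1%. The epidermal keratin Krt10 was less different, at 53.8% against 30.7% and 47.3% against 30.3%. Krt1 was at 43.6% in both kinds of Anal Canal cell. For Krt17 the relation to Krt10 ran the other way, since 24.0% of Anal Canal and 18.4% of wounded Basal cells with Krt17 had Krt10, against 37.3% and 35.8% of the cells without it.

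All 4 genes were found in 16 of 397 thinned Anal Canal cells and 7 of 564 wounded Basal cells, and in 0 cells of the other named clusters. In normal Suprabasal 53.6% of cells had 2 of them. Each of the 120 cells with Krt6a there had Krt17, as did 95.2% of the cells without Krt6a. In Wound_Stress 83.9% of cells had none of the 4, close to the 86.7% and 88.1% of the normal and wounded Rectum, while 44.4% of Regeneration and 8.04% of wounded Suprabasal cells had none.

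Each type splits differently by cluster. Krt6b made up 13.5% (12.8 to 14.3) of Krt6a and Krt6b UMIs in Anal Canal and 21.4% (20.3 to 22.5) in wounded Basal, but 0.607% (0.125 to 1.76) in normal Basal, 1.58% in normal Suprabasal and 0.416% in wounded Suprabasal. It was 8.90% (5.59 to 13.3) in Hybrid, which overlaps Anal Canal, and 4.08% (1.12 to 10.1) in Wound_Stress. Krt16 made up 41.7% (40.3 to 43.0) of Krt16 and Krt17 UMIs in Anal Canal and 23.4% (21.9 to 25) in wounded Basal, and between 0.496% and 1.68% in the 6 other clusters outside the Rectum. Type II UMIs were 62.3% of the UMIs of the 4 genes in Anal Canal and 64.9% in wounded Basal, and between 3.71% and 12.7% in those other clusters. The 4 genes together made up 41.6% of all keratin UMIs in normal and 41.4% in wounded Suprabasal, where Krt17 was the leading keratin, 18.3% in normal Basal, 15.0% in Regeneration, 14.9% in Hybrid, 11.2% in Anal Canal, 6.52% in wounded Basal and 3.03% in Wound_Stress, near the 2.86% of wounded Rectum.

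**Figure D4:**
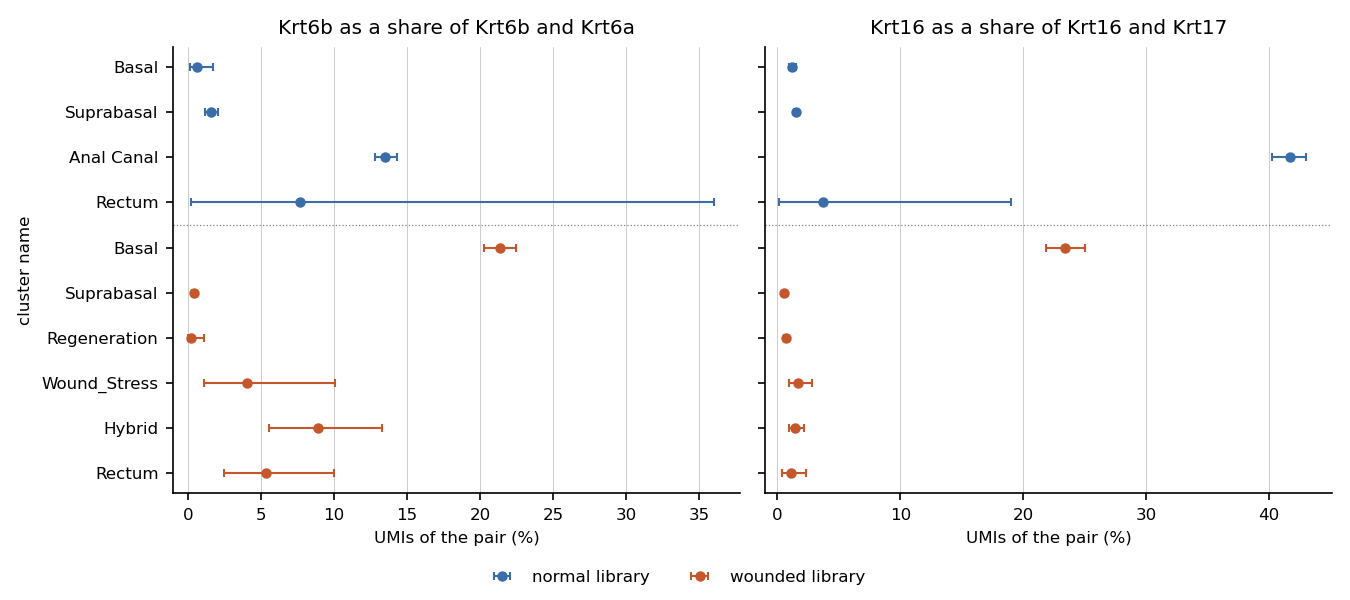
Krt6b as a percent of Krt6a and Krt6b UMIs (left) and Krt16 as a percent of Krt16 and Krt17 UMIs (right) in each cluster, with exact 95% Clopper-Pearson intervals. Anal Canal (13.5% and 41.7%) and wounded Basal (21.4% and 23.4%) lie to the right in both panels, and the wide bar in the left panel is normal Rectum, with 13 UMIs of the pair.

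The normal clusters named Basal and Suprabasal, which the paper assigns to layers of the TZ, were compared first. From Basal to Suprabasal all 4 genes were over 2-fold higher, where 6.57% of 9682 genes were higher and 17.1% lower by that measure. The paper identified its suprabasal TZ cells by Krt6, so the rise of Krt6a may follow from the naming. The log2 ratios were 2.88 (2.74 to 3.02) for Krt6a, 4.27 (2.64 to 6.60) for Krt6b (3 and 49 UMIs, 23 of the latter in 1 cell), 2.41 (2.04 to 2.80) for Krt16 and 2.05 (2.01 to 2.09) for Krt17. Of the other keratins, 14 fixed as a list, 11 had enough UMIs (at least 20, as in every ratio here). Without the 10% of cells with the most UMIs Krt6b was at 4.47 CPM in Suprabasal and 0.920 CPM in Basal. Of the listed keratins Krt1, Krt79 and Krt10 were higher, and Krt20, Krt15, Krt19, Krt7 and Krt5 were lower. Suprabasal also held a list of 4 upper follicle and duct genes, Krt79 among them, at 103779 CPM in sum, against 2497 CPM in Basal. The part of such cells in the ratios was not tested.

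Anal Canal cells were then set against the TZ cells, Basal and Suprabasal together. Krt6b (log2 ratio 4.69, 4.29 to 5.12), Krt16 (2.64, 2.49 to 2.80) and Krt6a (1.28, 1.22 to 1.34) were over 2-fold higher and Krt17 (-2.97, -3.03 to -2.92) lower, where 8.87% of 11036 genes were higher and 9.97% lower. Of the keratin list 9 were higher as well, led by Krt13 and Krt4. Of 22 genes that activated keratinocytes are known to express, 16 had enough UMIs and 11 were higher, among them Sprr1b, S100a9 and Serpinb2, with none lower and a median log2 ratio of 2.58 against 0.11 over all genes. S100a9, a neutrophil-attracting calcium-binding protein, was at 38.6 CPM in Anal Canal and 0.370 CPM in normal Basal.

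The wounded library was compared with the normal library over all named cells outside the Rectum clusters, the broadest comparison the design allows. Krt6a was at 431 CPM against 1185 CPM, Krt6b at 30.7 CPM against 132 CPM, Krt16 at 30.7 CPM against 278 CPM and Krt17 at 2546 CPM against 3271 CPM. The log2 ratios were -1.46 (-1.49 to -1.42), -2.10 (-2.22 to -1.98), -3.18 (-3.28 to -3.08) and -0.36 (-0.38 to -0.34). Thus 3 of the 4 were over 2-fold lower after the wound, and none higher, where 9.57% of 13697 genes were lower and 14.3% higher. Of the 14 other keratins 8 were lower and only Krt75 higher, with a median log2 ratio of -1.15. Of 20 genes of activated keratinocytes with enough UMIs 10 were lower (Sprr1b, Serpinb2 and S100a8 among them) and 3 higher (Sprr2d, Il33 and Sprr3), with a median of -1.06 against -0.01 over all genes. Sprr3 rested on 24 wounded and 2 normal UMIs, and its interval (-0.49 to 4.64) includes 0. Wounded Basal held 3162 of the 3169 wounded Sprr2d UMIs. When all barcodes that passed the filters were used, named or not, Krt6a came to -0.98 and Krt16 to -1.31.

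This comparison mixes clusters in different numbers, and level and makeup cannot be told apart in it. In the normal library Anal Canal made up 49.3% of these cells and held 68.1% of the Krt6a, 95.8% of the Krt6b and 84.6% of the Krt16 UMIs. No wounded cluster carries that name. In its text the paper identified a wounded cluster enriched for Krt10 as anal canal and suprabasal TZ cells. The names used here do not say which cluster that is, and among them Krt10 was highest in wounded Basal, at 1987 CPM. In the wounded library Regeneration and Wound_Stress made up 26.4% and 22.3% of cells and held 2.98% and 0.555% of Krt6a UMIs. Suprabasal made up 27.5% of wounded cells and held 82.2% of the Krt17 UMIs, and it was 21.3% of normal cells with 69.9% of them. The normal named cells had also passed a further filter against hair follicle cells, described below.

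The clusters that share a name gave mixed directions. In Suprabasal Krt16 (-2.02, -2.23 to -1.81) and Krt6b (-2.31, -2.91 to -1.71) were over 2-fold lower after the wound, where 5.63% of 11430 genes were lower and 16.2% higher. By summed UMIs Krt17 (-0.40, -0.42 to -0.38) and Krt6a (-0.37, -0.43 to -0.31) differed by less. Their ratios were -0.68 and -0.87 with each cell counted equally, and -0.23 and -0.16 in cells under 10% mitochondrial UMIs. The median cell was at 2774 CPM against 7270.4 CPM for Krt17 and at 159 CPM against 830.1 CPM for Krt6a. The list of upper follicle and duct genes was at 60575 CPM in wounded and 103779 CPM in normal Suprabasal. Its part in these ratios was not tested. In Basal Krt6a (2.0, 1.86 to 2.13), Krt16 (2.11, 1.76 to 2.48) and Krt6b (7.47, 5.92 to 9.75, on 3 normal UMIs) were higher and Krt17 (-2.57, -2.64 to -2.50) was lower, where 15.6% of 11035 genes were higher and 13.6% lower.

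The clusters named Basal also differed widely in other genes. Of 9 factors with enough UMIs 7 were lower in wounded Basal, Jun at 142 CPM against 1438 CPM among them. Wounded Basal cells carried Krt1 at 2473 CPM, Krt10 at 1987 CPM and Krt13 at 1443 CPM, against 17.4, 48.4 and 2.96 CPM in normal Basal, and 2286, 2228 and 812 CPM in Anal Canal. Over 11602 genes, the 4 left out, their levels correlated at 0.931 with Anal Canal and at 0.836 with normal Basal. They also held inner root sheath genes such as Krt71 (130.0 CPM) and Krt25 (142 CPM), which were at or near 0 in the normal clusters, and the normal Basal cells held 4 enteroendocrine genes at 893 CPM in sum, against 4.70 CPM. The part of such cells in the keratin levels was not tested. Set against Anal Canal, a pairing chosen after the data were seen, wounded Basal had less of all 4 genes by summed UMIs. The log2 ratios were -2.11 (-2.24 to -1.98) for Krt16, -1.25 (-1.31 to -1.20) for Krt6a, -0.89 (-0.96 to -0.81) for Krt17 and -0.45 (-0.57 to -0.34) for Krt6b, so that 2 were over 2-fold lower, where 7.02% of 11087 genes were lower and 10.2% higher. With each cell counted equally the direction of Krt6b turned (199.8 CPM against 186 CPM) and Krt6a was less than 2-fold lower (716 CPM against 1372 CPM), and without the cells with the most UMIs Krt17 was over 2-fold lower (229 CPM against 596 CPM).

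Regeneration was the wounded cluster most like normal Basal (0.900 over the same genes), with wounded Suprabasal close to it (0.893), a likeness read from these same data. Against normal Basal, Regeneration had over 2-fold less Krt6a (-2.22, -2.41 to -2.04), Krt16 (-2.0, -2.46 to -1.53) and Krt17 (-1.17, -1.22 to -1.13), where 13.8% of 11524 genes were lower and 11.6% higher, and Krt6b had too few UMIs. Of 13 other keratins none was higher, and Krt7, Krt15, Krt20, Krt10 and Krt5 were lower. Regeneration also held a list of 8 anal gland genes at 4201 CPM in sum, against 926 CPM in normal Basal. The part of this difference in the keratin ratios was not tested.

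**Figure D5:**
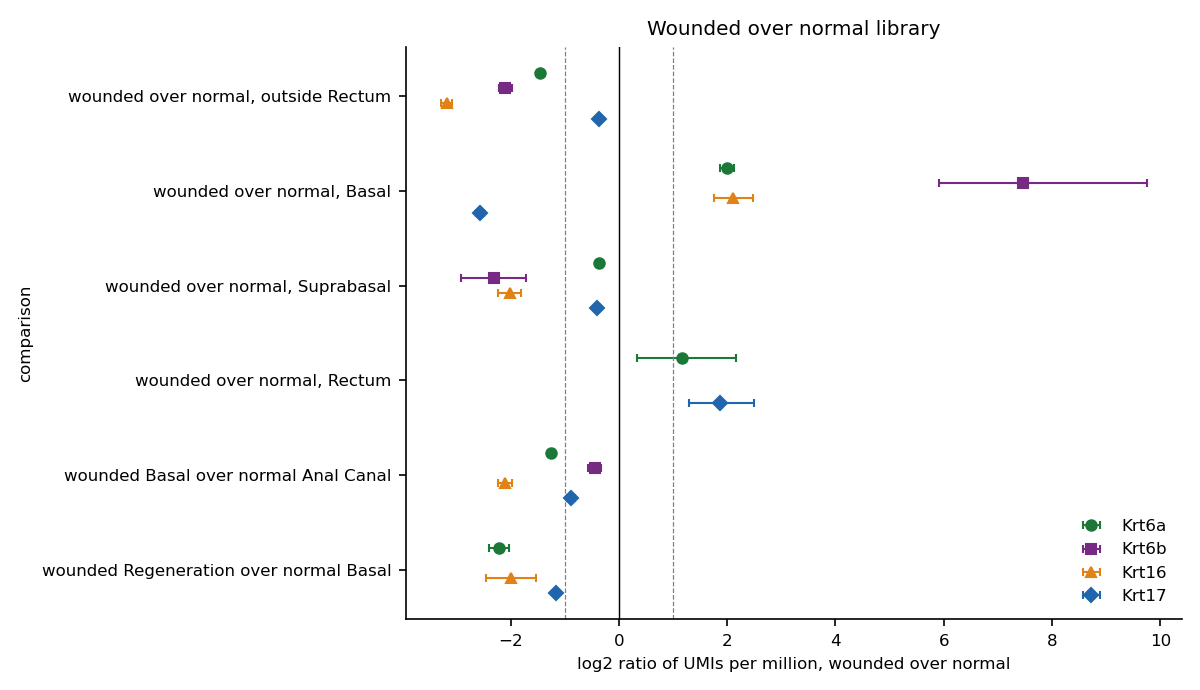
Log2 ratio of CPM, wounded over normal library, for each gene in 6 comparisons, with exact 95% binomial intervals for counting error; dashed lines mark 2-fold. Outside Rectum all 4 genes lie left of 0 (-0.36 to -3.18), whereas in the clusters named Basal 3 lie right of 0 (2.0 to 7.47) and Krt17 lies at -2.57.

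Inside the wounded library the clusters whose names refer to repair had little Krt6a, Krt6b and Krt16, while Krt17 was higher in Regeneration (1004 CPM) than in wounded Basal (381 CPM). Wound_Stress and Regeneration together, set against Basal and Suprabasal, gave log2 ratios of -8.12 (-9.75 to -6.90) for Krt6b, -4.99 (-5.11 to -4.87) for Krt6a, -3.64 (-3.95 to -3.35) for Krt16 and -2.85 (-2.87 to -2.82) for Krt17. All 4 were over 2-fold lower, where 12.8% of 13485 genes were lower and 8.43% higher. Of the 22 genes of activated keratinocytes, 19 had enough UMIs, 14 were lower and only Il33, an alarmin, was higher. Il33 was at 134 CPM in Regeneration and 154 CPM in Wound_Stress against 6.45 CPM in wounded Basal. The paper identified wounded stratified clusters by wound and regeneration genes such as Il33, so the Il33 value may follow from the naming. Of 11 factors known to act on these keratins, 7 were higher (Fosl1, Myc, Fos, Jun, Junb, Cebpb and Stat3) and Gli2 and Gli1 lower.

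Regeneration and Wound_Stress differed from each other as well. Wound_Stress had over 2-fold less Krt17 (-3.19, -3.29 to -3.09), Krt16 (-1.85, -2.78 to -1.03) and Krt6a (-1.62, -1.96 to -1.30) than Regeneration, where 6.47% of 12105 genes were lower and 4.23% higher, and 6 of 9 factors were lower with them (Fosl1, Junb, Fos, Jun, Stat3 and Myc). Jun was at 3488 CPM in Regeneration and 324 CPM in Wound_Stress. Wound_Stress cells had Krt14 at 2815 CPM and Trp63, the master factor of stratified epithelium, at 222 CPM, the level also found in Regeneration. Genes of stratified epithelium were thus present in cells with little of the 4 keratins. Both clusters also held the genes of an anal gland list (8 genes, Scd1 and Plin2 among them, none at 0) at 3444 CPM and 4201 CPM, against 229 CPM in wounded Basal and 718 CPM in wounded Suprabasal, and its part in the keratin levels was not tested. In the wounded cells without a name that passed the filters, the anal gland list was at 6499.8 CPM. The median mitochondrial share was 11% in Wound_Stress and 5.91% in Regeneration.

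Hybrid cells, 316 in number with a median depth of 2390 UMIs, held Krt17 and rectal genes together as a cluster (Krt8 at 430.2 CPM). The paper identified its hybrid cells by Krt17 with Krt8 and Muc13, so this may follow from the naming. Of 184 thinned cells 24 had both Krt17 and Krt8, and Krt8 was in 27.3% of cells with Krt17 and in 27.1% of cells without it. Krt10 was in 55.3% of Hybrid cells with Krt6a and 20.5% of those without. This cluster also held 4 enteroendocrine genes at 20094 CPM in sum and 6 inner root sheath genes at 1713 CPM, with none of either list at 0. Their part in its keratin levels was not tested.

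In wounded Rectum a few cells held most of the Krt17 and Krt6a UMIs, which was not so in normal Rectum. Krt17 was at 134 CPM after the wound against 36.9 CPM, a log2 ratio of 1.86 (1.29 to 2.49), and Krt6a at 38.4 CPM against 17 CPM, 1.17 (0.33 to 2.16), where 11.6% of 10197 genes were higher and 6.41% lower. In wounded Rectum 40 cells held 85.3% of the Krt17 UMIs, and 1 cell held 160 of them, while no normal Rectum cell held more than 2. With each cell weighted equally the Krt6a ratio became -0.02, and without the 10% of cells with the most UMIs -0.32, so no direction is given for it. The same settings gave 0.98 and 1.06 for Krt17. Of 13 keratins of the list 8 were higher as well, among them Krt14, at 340.4 CPM against 95.1 CPM. Krt17 was 28.3% (26.3 to 30.3) of Krt17 and Krt14 UMIs in wounded Rectum. It was 34.7% in the other named wounded cells and 29.9% (29.4 to 30.5) in the barcodes that failed the filters. For other pairs the intervals did not overlap those of the failed barcodes. Krt6a was 22.3% (19.3 to 25.5) of Krt6a and Krt17 UMIs in wounded Rectum and 14.5% in the other named cells. Its interval in the failed barcodes was 16.3 to 17.7. In wounded Rectum 1 cell held 68 of the 158 Krt6a UMIs, an uneven spread that the interval does not cover. Krt16 was 1.08% (0.396 to 2.33, 6 UMIs) of Krt16 and Krt17 UMIs in wounded Rectum. It was 1.19% in the other named cells and 4.97% (4.54 to 5.43) in the failed barcodes. The part of stratified cells or their RNA in this cluster was not tested. Krt6b and Krt16 had too few UMIs in the Rectum for a ratio.

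The genes most like each member over the 10 clusters, by Pearson's correlation of log2(CPM + 1) among 11605 genes, differed from member to member. For Krt6a they were S100a16 (0.977), Clca2, Jup, Pinlyp and Krt80 (0.961). For Krt6b they were the serine proteases Tmprss11g and Tmprss11b (both 0.978), Il1f9, Krt10 and Sptssb. For Krt16 they were Rbms1 (0.970), the transglutaminase Tgm1, Rdh12, Sox15 and Jup, and for Krt17 the tight junction gene Cldn1 (0.985), Fam167a, Bbox1 and Art3. Only Jup, plakoglobin, came up under 2 members. Tmprss11g was at 48.2 CPM in Anal Canal, 39.5 CPM in wounded Basal and at most 4.72 CPM in other clusters, and Cldn1 was at 99.5 CPM in normal and 91.1 CPM in wounded Suprabasal. Among the members, Krt6a and Krt16 were closest (0.95), followed by Krt6b and Krt16 (0.84), Krt6a and Krt6b (0.77), Krt6a and Krt17 (0.73) and Krt16 and Krt17 (0.62), while Krt6b and Krt17 were at 0.19. These are descriptions over 10 points from 2 libraries, in which clusters of 1 library share its depth and free RNA.

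By UMIs summed over a cluster, the highest levels of Krt6a, Krt16 and Krt17 lay in small clusters of cells without a name. Single cells did not all follow this order. The highest count in 1 named cell was 480 UMIs for Krt6a, 970 for Krt17 and 242 for Krt16. Among unnamed cells that passed the filters it was 280, 558 and 442 UMIs. The unnamed cells that passed the filters were clustered without the 4 genes. Wfdc18, Fam25c, Dsg1a and Nlrp10 were among the leading genes of 1 cluster in each library, of 84 normal and 144 wounded cells, and the wounded cluster was led by Krt84, Rnase12, Lrat and Krt75. Both held Krt75, at 122 CPM and 159 CPM, and Lhx2, a hair follicle factor, at 214 CPM and 127 CPM. Of the cell type lists scored against the other unnamed cells, differentiated stratified epithelium came out highest in both, with mean log2 ratios of 1.78 and 2.02. Krt6a was at 4442 CPM (4271 to 4617) in the normal and 4459 CPM (4354 to 4565) in the wounded cluster, and these intervals overlap. The normal and wounded levels of Krt17 were 15096 CPM (14780 to 15416) and 14460 CPM (14271 to 14650), those of Krt16 1336 CPM (1244 to 1434) and 2214 CPM (2140.0 to 2289). Krt6b was low in both, at 5.21 CPM and 22.6 CPM. At a finer resolution, chosen after the data were seen, the clusters with these leading genes held 78 and 103 cells. Krt75 was at 28.7 CPM and 237 CPM in them, and Lhx2 at 218 CPM and 130.4 CPM. Krt6a was then at 4449 CPM and 5317 CPM, Krt16 at 1259 CPM and 2682 CPM, and Krt17 at 14918 CPM and 15942 CPM, so the order of Krt17 between the libraries turned and that of Krt16 did not. Clusters led by fibroblast, endothelial or smooth muscle genes were low, with Krt6a at 16.8 CPM or less in all but 1. That was a wounded cluster of 46 cells that also held Sprr2d and had Krt6a at 111 CPM. Low levels were also found in epithelial clusters where the anal gland list scored highest. Krt6a and Krt17 were at 11.9 and 67.7 CPM in 100 normal cells, and at 2.43 and 59.6 CPM in 87 wounded cells. A normal cluster of 133 cells, with that list highest at a mean log2 ratio of -0.15, had Krt17 at 782 CPM.

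The reporter ZsGreen1 offers a record of earlier Krt17 promoter activity, but only the normal library lists it. It was found in 13 of 257 Basal, 11 of 187 Suprabasal, 17 of 432 Anal Canal and 0 of 63 Rectum cells, and the last allows up to 4.76% of cells with a reporter UMI, which is no limit on cells that carry the reporter. Of the 41 reporter cells 37 had a UMI of Krt17 (90.2%), against 73.9% of the others. The reporter cells were deeper, with a median of 13340 UMIs against 9430 UMIs, and the part of depth in this difference was not tested. Within clusters the shares were 92.3% against 91.8% in Basal, 11 of 11 cells against 98.3% in Suprabasal and 82.4% against 58.6% in Anal Canal. The median Krt17 level per cell was lower in reporter cells in Basal (1483 against 1767 CPM) and Suprabasal (5277 against 7381 CPM). In Anal Canal the median was higher in reporter cells, at 227 CPM. Over all named cells the medians were 1483 CPM in reporter cells and 680.3 CPM in the others. These differences were not tested.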

How the data were processed

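Single cells were sorted and sequenced by the study in 1 normal and 1 wounded library. For each library the deposited matrix holds raw UMI counts, which the authors made with Cell Ranger on mm10. The submitters' notes name version 3.1.0, and the header of the wounded matrix names 4.0.0. The authors also deposited natural log values for the cells they kept and named in Seurat 3.2.2, after filters (over 200 and under 5000 genes, under 25% mitochondrial UMIs) and removal of clusters of other cells. Each such value is ln(1 + n) with n whole, and the step behind n is not given in the sources used here. They were used for names and as an alternative. In the normal library the paper also removed cells by expression of Lgr5, Lhx2 and Tbx1, to take out hair follicle cells. It does not describe this step for the wounded library. The part of this step in the wounded-over-normal ratios was not tested.

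Counts were summed per name with Python 3.11.15, numpy 2.4.6 and scipy 1.17.1. A log2 ratio was computed for genes with at least 20 UMIs over both groups, with 3 UMIs in place of 0, and over 2-fold means a log2 ratio beyond 1 or -1. Simulated independent Poisson counts were used to test both ratio and interval, which does not cover the uneven spread of UMIs over the cells of a cluster. Cells were thinned to 2000 UMIs without replacement (seed 1). Unnamed cells were clustered in scanpy 1.11.5 (Leiden, resolution 0.5), and each cluster is called by its leading genes. Doublets were not called, and PCR and sorting error are not covered by the intervals. The genes named are the 4 keratins, 14 other keratins, 22 genes of activated keratinocytes, 11 factors, the reporter, and the 5 genes most like each keratin, 1 of which is not reported here. Genes outside these (Krt71, Krt25 and leading genes of unnamed clusters) were named after their values were seen. The 4 genes and the lists were chosen with earlier results of these data known. Alternatives were the mean of per-cell CPM, no cells with the most UMIs, cells under 10% mitochondrial UMIs, another denominator, the deposited values, thinning to 4000 UMIs, a minimum of 2 UMIs, Spearman's correlation and a minimum of 1000 UMIs.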

Additional observations from a re-analysis of the deposited data

Results flagged for a closer look

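Opposite directions under different cluster names were found for each of the 4 keratins, with intervals that exclude 0, although with 1 library per condition the difference between names was not tested. Wounded over normal, the log2 ratio of Krt6a was 2.0 in Basal and 1.17 in Rectum but -0.37 in Suprabasal, and its Rectum value changed sign under 3 of the alternatives. For Krt6b it was 7.47 in Basal and -2.31 in Suprabasal, and for Krt16 it was 2.11 in Basal and -2.02 in Suprabasal. Krt17 went the other way, at -2.57 in Basal and -0.40 in Suprabasal but 1.86 in Rectum. Its only higher value was thus in Rectum, the cells used as background, where 1 wounded cell held 160 of 551 UMIs. With each cell weighted equally that value was 0.98. The Basal values compare clusters whose other keratins differ as widely, with Krt13 at 1443 CPM and 2.96 CPM.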

How the results depend on the processing

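Outside the Rectum clusters the wounded-over-normal log2 ratios of Krt6a, Krt6b, Krt16 and Krt17 kept their sign in all 7 alternatives. The mean of per-cell CPM gave -1.46 for Krt6b, -2.94 for Krt16 and -0.49 for Krt17. Leaving out the 10% of cells with the most UMIs gave -1.31, -1.76, -3.01 and -0.45 in that order of genes, and cells under 10% mitochondrial UMIs gave -1.23 for Krt6a, -1.84 for Krt6b and -0.13 for Krt17. UMIs that are neither mitochondrial nor keratin as the denominator gave -1.41 for Krt6a and -0.31 for Krt17, and the numbers behind the deposited values gave -1.38, -1.78, -2.99 and -0.42. Without Hybrid cells Krt6a was at -1.42 and Krt17 at -0.33, and with all barcodes that passed the filters the values were -0.98, -1.71, -1.31 and -0.24, so that 2 genes were over 2-fold lower, not 3.

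In Basal and Suprabasal all 4 directions held in each of the 5 alternatives run. In Rectum the ratio of Krt6a reversed to -0.02, -0.32 and -0.06 with per-cell means, without the cells with the most UMIs and with the deposited values, and 0, 1 and 0 members were over 2-fold higher there, against 1 in cells under 10% mitochondrial UMIs and 2 as reported. Of the 5 genes most like each member, 1 of Krt6a, 1 of Krt6b, 0 of Krt16 and 2 of Krt17 were kept under Spearman's correlation. No paired analysis was possible because each condition is 1 library. Of the 40 levels 27 stayed within 1.5 times with per-cell means, 33 without the cells with the most UMIs and 33 in cells under 10% mitochondrial UMIs. Krt6b values in normal Basal, Regeneration and Wound_Stress rest on 1 to 4 UMIs.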
